A study of Mus musculus with 4 samples.

Results

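Transcript levels of 42 genes for DNA methylation and histone modification were followed through an array experiment on early T lineage cells of the mouse. The genes were taken from a list of symbols. Of the 42, 41 had a probe set that names a single gene, among 19938 genes measured in this way, and Suv39h1 is not analysed here. Where a gene had several probe sets, the brightest, by its mean of all 4 arrays, stands for the gene. The input cells were lymphoid-primed multipotent progenitors (LMPPs), bone marrow cells of C57BL/6 mice that can still give rise to lymphoid and myeloid cells. They were labelled as wild type and sorted as Sca+, kit+ and Flt3high cells without lineage markers. The sorted cells were pooled and measured on 1 array after 48 hours in medium with the cytokines used for transduction. LMPPs transduced with a Tcf1 retrovirus (Tcf1-VEX) and cultured on OP9 stroma, which derives from bone marrow and carries no added Notch ligand, gave Thy1+CD25+ cells that were sorted on day 10 and measured on 2 arrays, labelled as biological replicates. These are called Tcf1 cells. LMPPs transduced with the empty vector (VEX) and grown on OP9-DL4, the same stroma with the Notch ligand DL4, gave Thy1+CD25+ cells of day 10 that were measured on 1 array, called control cells. Both cultures received IL7 at 1 ng/ml and Flt3 ligand at 5 ng/ml, and both were sorted as CD45.2+ cells without the myeloid markers Mac1 and Gr1. Tcf1 cells and control cells thus differed in vector and in stroma at once, and these cannot be told apart. The Tcf1 came from a retroviral vector, so its level is not that of the native gene.

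Chromatin modifiers set which genes a progenitor can still use. Dnmt3a and Dnmt3b place methyl groups on CpG dinucleotides, Dnmt1 with its partner Uhrf1 copies them at replication, and Tet enzymes oxidise them. Polycomb complexes keep genes silent through marks on histones, acetyltransferases and deacetylases add and remove acetyl groups, and remodelling ATPases move nucleosomes. In blood cells Dnmt3a and Tet2 are best known as regulators of stem cell renewal, and Hdac7 for its abundance in thymocytes.

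Values are log2 signals, so a difference of 1 is a 2-fold change. The medians of the 4 arrays over the named genes lay between 7.47 and 7.59. Tcf1 replicate 1 was the narrowest, with an interquartile range of 2.91 against 3.13 to 3.22 elsewhere, and its 75th percentile was 9.12 against 9.32 to 9.35. The members are all genes with a mean signal above that of the median gene, where this difference is felt: 38 of 41 read higher in Tcf1 replicate 2 than in replicate 1, as did 84.8% of genes above the median level. The sort markers Thy1 and Il2ra (CD25) lay between 12.4 and 13.6 in the 3 T lineage arrays, against 8.13 and 6.88 in the LMPP array. Tcf1 cells and control cells also differed in markers of other cells: 8 of 14 macrophage genes passed as higher in Tcf1 cells, 7 of 9 LMPP genes likewise, and 7 of 12 T lineage genes as lower. The mean log2 level of the 14 macrophage genes was 8.50 and 8.77 in the Tcf1 arrays, 7.69 in LMPPs and 6.82 in control cells. Of 22 cell cycle genes, 0 passed in either comparison (limma), with 6 lower than in LMPPs and 1 lower than in control cells at an unadjusted p under 0.05. Of 12 neutrophil genes 4 passed as higher in Tcf1 cells than in control cells. Of 14 stromal genes 2 passed as higher and 1 as lower, and of 7 B lineage genes 1 as lower. Over all genes 1.90% passed as higher and 2.49% as lower. Against LMPPs, 5 of 14 macrophage, 8 of 12 T lineage and 4 of 14 stromal genes passed as higher and 0 as lower. Of 12 neutrophil genes 1 passed as higher and 6 as lower, of 9 LMPP genes 1 and 3, and of 7 B lineage genes 0 and 1. Over all genes 1.75% passed as higher than in LMPPs and 1.31% as lower. In such bulk samples, fewer cells of a type and less RNA per cell cannot be told apart. The part of these differences in the results on chromatin genes was not tested.

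Tested with limma at an adjusted p under 0.05 over all genes, 5 members passed in 1 comparison each. Tet1 was lower in Tcf1 cells than in LMPPs, and Dnmt3b, Hdac4, Hdac7 and Hdac9 were lower in Tcf1 cells than in control cells. The promoters of these 5 genes are shown because they differ widely in CpG content, the substrate of the enzymes described here. Each line gives the 100 bases before the RefSeq start site, on the strand of the gene (build GRCm38.p6), with CpG dinucleotides in capitals. The stretches lie at chr10:62887325-62887424 (minus strand), chr2:153649349-153649448 (plus), chr1:92180342-92180441 (minus), chr15:97844503-97844602 (minus) and chr12:34917096-34917195 (minus).
Tet1: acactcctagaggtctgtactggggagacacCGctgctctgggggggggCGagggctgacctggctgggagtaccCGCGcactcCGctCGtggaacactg
Dnmt3b: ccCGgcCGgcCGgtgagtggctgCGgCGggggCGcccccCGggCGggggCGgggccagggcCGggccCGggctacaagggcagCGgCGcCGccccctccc
Hdac4: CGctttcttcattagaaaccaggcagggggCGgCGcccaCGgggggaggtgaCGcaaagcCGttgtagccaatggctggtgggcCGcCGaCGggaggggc
Hdac7: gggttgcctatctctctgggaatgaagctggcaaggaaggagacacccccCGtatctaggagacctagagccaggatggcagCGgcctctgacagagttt
Hdac9: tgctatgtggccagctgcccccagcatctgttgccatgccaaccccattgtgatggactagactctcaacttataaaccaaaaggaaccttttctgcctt
They hold 6, 14, 9, 2 and 0 CpG dinucleotides in that order. Over windows of 250 bases before to 50 after the start, the counts were 17 for Tet1, 30 for Dnmt3b, 32 for Hdac4, 6 for Hdac7 and 0 for Hdac9. Windows were found for 36 of the 41 members, with a median of 26 CpG dinucleotides against 15 over the 15614 measured genes with a window. CpG content over genes above the median level, where all members lie, was not counted. Dnmt3b and Hdac4 thus have CpG-dense starts in these windows, and Hdac9 has no CpG in its window. A link between CpG content and transcript level was not tested. RefSeq lists 4 windows for Hdac7 and 2 for Hdac9, and the one farthest upstream was taken. The files do not tell which start was in use.

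Short motifs were searched on both strands of the 300 base windows, and no motif is contained in another. Where RefSeq lists several windows, such as 3 for Dnmt1, only the one farthest upstream was searched. The letters CTTTGAT or CTTTGAA, bound by TCF and LEF factors, were found in 2 of 36 members (5.6%), Dnmt1 and Suz12, and in 7.6% of all windows. TGGGAA, bound by the Notch effector RBPJ, was found in 8 of 36 (22.2%) and in 24.0% of all windows, with 1 match each in the windows of Tet1 and Hdac7 among the 5 genes shown. TTGGCGC or TTCCCGC or TTCGCGC or TTGCCGC, bound by E2F factors of the cell cycle, was found in 5 of 36 (13.9%) and in 13.1% of all windows. TGTGGT, bound by RUNX factors, was found in 5 of 36 (13.9%) and in 14.2%. The shares in the members lay near those of all windows, and none of the 5 genes shown held the TCF, E2F or RUNX letters in its window.

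The first comparison sets the chromatin genes of the input progenitors against those of T lineage cells made with Tcf1 and without Notch ligand. Tcf1 cells differed from the LMPP array in vector, stroma, time in culture and sort at once, and these cannot be told apart. Of 41 members, 1 fell, 0 rose and 40 did not pass (limma). Over all genes 3.06% passed, 1.31% as lower and 1.75% as higher, so the share of members, 1 in 41, lay near the background. Over genes above the median level, where all members lie, 4.76% passed, 1.78% as lower and 2.99% as higher. At an unadjusted p under 0.05, 4 members were lower (9.76%; Tet1, Dnmt3b, Hdac9 and Sirt1) and 0 higher. Over all genes these shares were 9.22% lower and 5.33% higher, and over genes above the median level 15.3% and 7.71%. The share of members called lower thus lay near that of all genes and below that of genes above the median level. The call on Tet1 was lost when all 35399 probe sets were tested together (adjusted p = 0.365, limma). It was also lost with an unmoderated test (adjusted p = 0.803). In these settings 0 probe sets and 12 genes passed in all, so the loss was not particular to Tet1.

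The comparison with control cells addresses how T lineage cells made with Tcf1 differ from those made with a Notch ligand. Of the members, 4 were lower in Tcf1 cells, 0 were higher and 37 did not pass (limma). Over all genes 4.38% passed, 2.49% as lower and 1.90% as higher. Over genes above the median level 6.83% passed, 3.86% as lower and 2.97% as higher. At an unadjusted p under 0.05, 9 of 41 members were lower and 2 higher (4.88%; Tet1 and Tet2). Over all genes 8.37% were lower and 5.72% higher at this level, so the count of higher members lay near the background. Over genes above the median level the shares were 13.8% lower and 8% higher, against 22% and 4.88% of the members. The 4 calls were lost over all 35399 probe sets, with adjusted p-values from 0.205 for Dnmt3b to 0.278 for Hdac9 (limma), and with an unmoderated test. As only 0 probe sets and 12 genes passed there in all, this loss was not particular to the members. Both comparisons take their spread from the Tcf1 pair, as LMPPs and control cells had 1 array each.

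**Figure D1:**
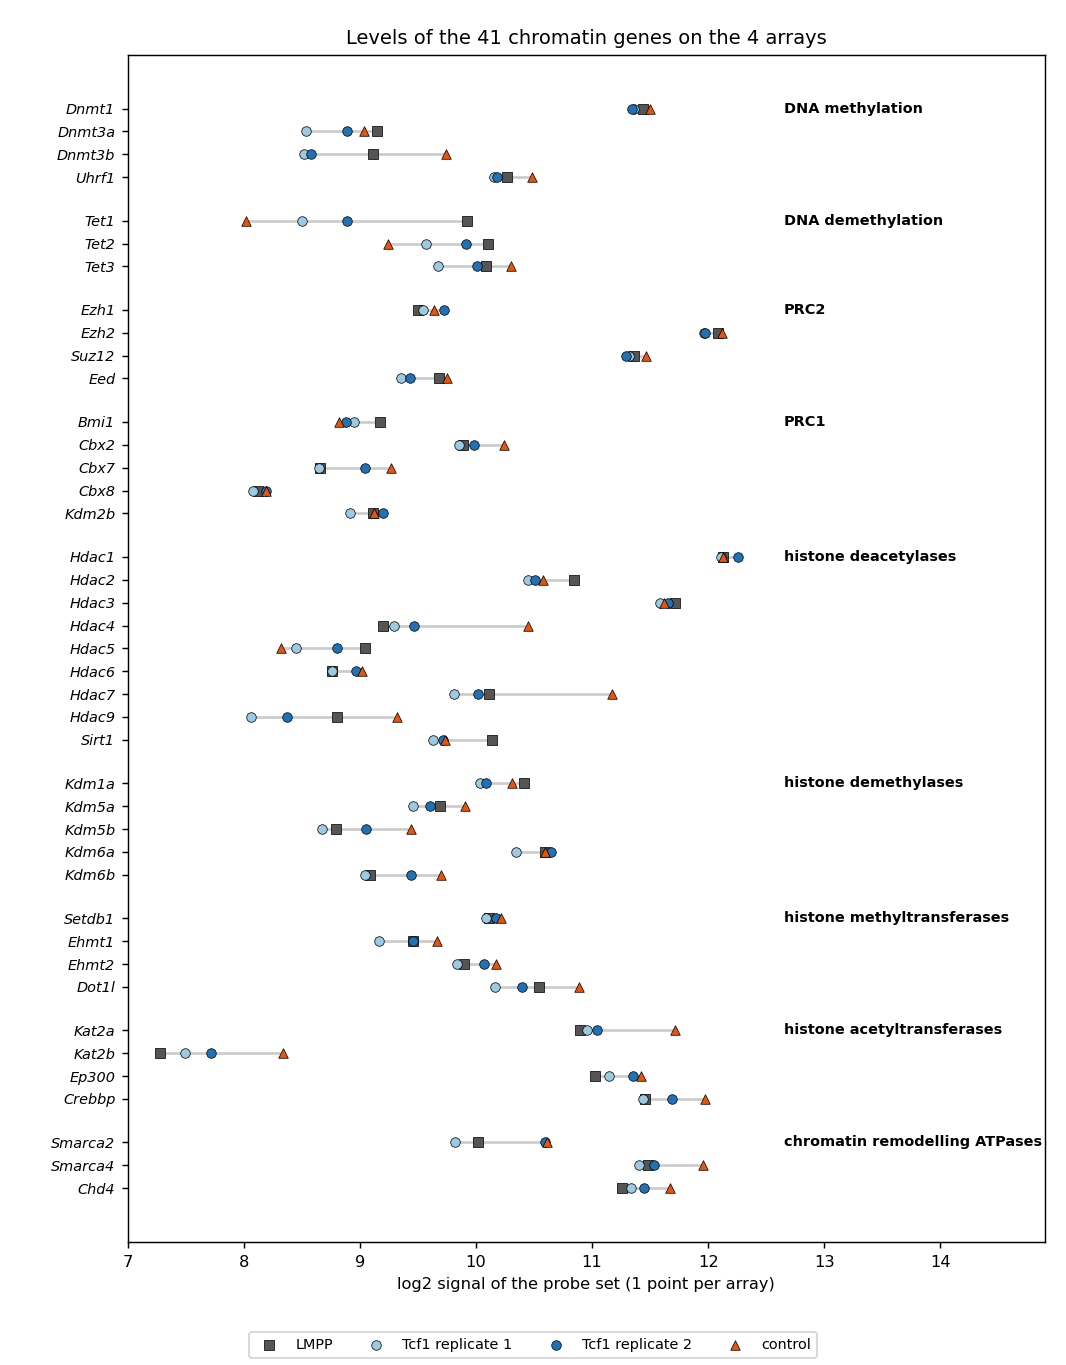
Log2 signal (x axis) of the 41 measured members (y axis, in groups by role), with 1 point for each of the 4 arrays and a grey line from the lowest to the highest. The control array stands to the right of the other 3 for Dnmt3b, Hdac4, Hdac7 and Hdac9 and to their left for Tet1 and Tet2.

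Among the enzymes that place and copy DNA methylation, Dnmt3b set the groups apart. This de novo methyltransferase, active in early development and in progenitors, read 9.11 in LMPPs, 8.51 and 8.57 in Tcf1 cells and 9.74 in control cells. The Tcf1 arrays were the lowest and lay within 0.06 of each other, and the control array was the highest. Dnmt3b was 2.29-fold lower in Tcf1 cells than in control cells (log2 difference -1.20 with SE 0.16, limma adjusted p = 0.0096). Against LMPPs the difference was -0.56 (SE 0.16) and did not pass (adjusted p = 0.148, limma). It passed in 1 of 8 alternatives, median centring (adjusted p = 0.0497, limma).

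Dnmt3a, the other de novo methyltransferase, read 9.15 in LMPPs, 8.54 and 8.89 in Tcf1 cells and 9.04 in control cells. It was lowest in Tcf1 cells too, with differences of -0.43 from LMPPs and -0.32 from control cells that did not pass, the latter with a 95% interval of -0.80 to 0.15. Whether Dnmt3a and Dnmt3b differed from each other in their response was not tested. The maintenance pair varied less. Dnmt1 read 11.44 in LMPPs, 11.36 and 11.35 in Tcf1 cells and 11.50 in control cells. Its partner Uhrf1, which recognises half-methylated DNA, read 10.27, 10.16, 10.18 and 10.49 in the same order. For Dnmt1 the 95% interval of the difference was -0.46 to 0.30 from LMPPs and -0.53 to 0.23 from control cells. Values for Dnmt3a, Dnmt1 and Uhrf1 are given although no rule selected them, as are those for Tet2, Tet3, Ezh2, Bmi1, Hdac1, Hdac5, Sirt1, Kat2a, Kdm6b and Smarca4, which were chosen after their values were seen.

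The Tet genes, whose enzymes start the removal of DNA methylation, did not share an order. Tet1 read 9.92 in LMPPs, 8.50 and 8.88 in Tcf1 cells and 8.02 in control cells. The LMPP array was the highest, the control array the lowest, and both Tcf1 arrays lay between. Tet1 fell 2.34-fold from LMPPs to Tcf1 cells (-1.23, SE 0.20, adjusted p = 0.0277, limma), by 1.42 in replicate 1 and 1.04 in replicate 2. Tcf1 cells read higher than control cells by 0.68 (SE 0.20), which did not pass (adjusted p = 0.160, limma). It passed in 1 of 8 alternatives, the test over genes above the median level (adjusted p = 0.0193). Between the single control and LMPP arrays the difference was -1.90, a 3.74-fold lower signal in control cells.

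Tet1 was covered by 3 probe sets, which gave the same order of groups at different signal levels. Their differences between Tcf1 cells and LMPPs were -1.23, -0.96 and -1.16, and those between control cells and LMPPs -1.90, -1.60 and -1.97. They measure the same 4 RNA samples, so they speak to the probes and not to the spread between cultures. Tet2 had the same order as Tet1 over a smaller range: 10.10 in LMPPs, 9.57 and 9.91 in Tcf1 cells and 9.24 in control cells. Neither of its tested differences passed, with -0.36 from LMPPs and 0.50 from control cells (adjusted p = 0.315, limma). Tet3 ran the other way, as its control array was the highest, with 10.08 in LMPPs, 9.67 and 10.01 in Tcf1 cells and 10.30 in control cells. Both probe sets of Tet3 had this order, with differences from control cells of -0.46 and -0.44, and the gene did not pass (adjusted p = 0.359, limma).

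**Figure D2:**
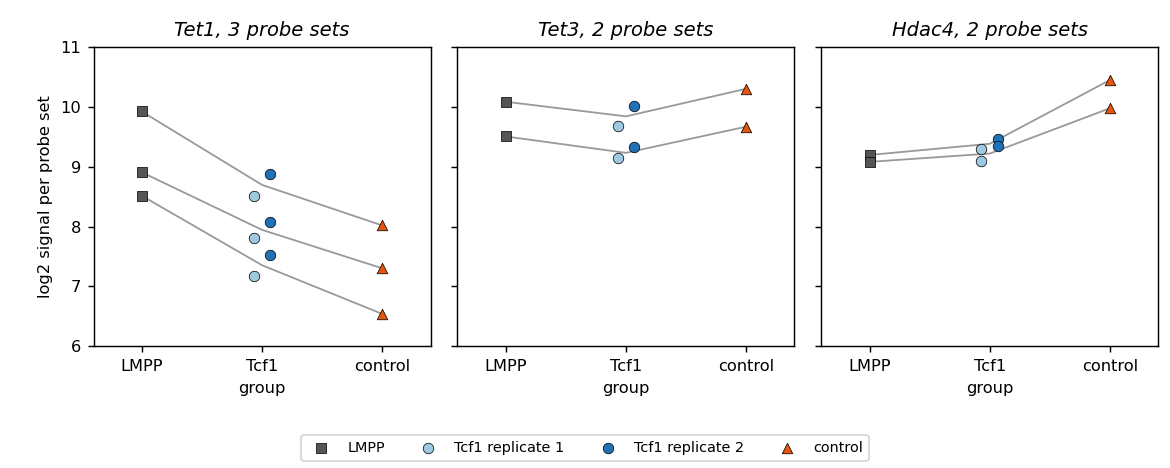
Log2 signal (y axis) of each probe set of Tet1, Tet3 and Hdac4 in the 3 groups (x axis), with 1 point per array and a grey line through the group means of each probe set. All 3 probe sets of Tet1 step down from LMPPs through Tcf1 cells to control cells, and both of Hdac4 are highest in control cells.

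The core of Polycomb repressive complex PRC2, which methylates histone H3, was close to even across the arrays. Of Ezh2 and Ezh1, the catalytic subunits, and Suz12 and Eed, the partners they need, 0 of 4 passed in either comparison (limma), and 0 had an unadjusted p under 0.05. Differences between Tcf1 cells and LMPPs ran from -0.29 (Eed) to 0.13 (Ezh1), and those between Tcf1 cells and control cells from -0.36 (Eed) to -0.01 (Ezh1). Eed varied most, with 9.68 in LMPPs, 9.36 and 9.43 in Tcf1 cells and 9.75 in control cells. Both Tcf1 arrays lay below the others, and the 95% interval of the difference from control cells was -0.75 to 0.02. Ezh2 read 12.08, 11.96, 11.97 and 12.12 in the same order of arrays, and the interval from control cells was -0.53 to 0.23, so changes of 2-fold in Ezh2 lay outside it.

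Genes of PRC1, the complex that binds the PRC2 mark, gave 0 of 5 past the test in either comparison (limma) and 0 at an unadjusted p under 0.05. Cbx7, a reader of the mark, varied most: 8.65 in LMPPs, 8.65 and 9.04 in Tcf1 cells and 9.26 in control cells. The Tcf1 replicates of Cbx7 differed by 0.39, so replicate 1 matched the LMPP array and replicate 2 lay nearer to the control array. Bmi1, which supports self-renewal of blood stem cells, read 9.18 in LMPPs, 8.95 and 8.88 in Tcf1 cells and 8.82 in control cells. Its 3 T lineage arrays lay below the LMPP array, by 0.26 for Tcf1 cells (95% interval -0.65 to 0.12) and by 0.36 for control cells. Cbx2, Cbx8 and Kdm2b, the subunit that brings a variant PRC1 to CpG islands, differed by -0.06 to 0.03 from LMPPs and by -0.33 to -0.05 from control cells.

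Of 9 deacetylase genes, 3 were lower in Tcf1 cells than in control cells and 6 did not pass (limma). The background was 2.49% lower over all genes and 3.86% over genes above the median level. These 3 belong to class IIa, of which the list holds 4 genes, and no test compared the classes. Class IIa deacetylases shuttle between nucleus and cytoplasm and bind transcription factors of the MEF2 family. Hdac7, the class IIa enzyme typical of thymocytes, read 10.11 in LMPPs, 9.81 and 10.02 in Tcf1 cells and 11.17 in control cells. The control array stood apart from the other 3, which lay within 0.30 of each other. Hdac7 was 2.39-fold lower in Tcf1 cells than in control cells (-1.25, SE 0.17, adjusted p = 0.0107, limma).

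Hdac4 was also highest in control cells, with 9.19 in LMPPs, 9.30 and 9.47 in Tcf1 cells and 10.45 in control cells. Unlike for Hdac7, both Tcf1 arrays lay above the LMPP array. Tcf1 cells were 2.09-fold lower than control cells (-1.07, SE 0.17, adjusted p = 0.0176, limma), and the second probe set of Hdac4 gave -0.76. Hdac9 read 8.80 in LMPPs, 8.06 and 8.37 in Tcf1 cells and 9.32 in control cells. Both Tcf1 arrays of Hdac9 were below the LMPP array and the control array above it, and Tcf1 cells were 2.15-fold lower than control cells (-1.10, SE 0.19, adjusted p = 0.0244, limma). Hdac5, the remaining class IIa gene, differed in direction: 9.04 in LMPPs, 8.45 and 8.80 in Tcf1 cells and 8.32 in control cells. Its difference of 0.30 from control cells did not pass (95% interval -0.17 to 0.78), an interval that holds none of the values of Hdac4, Hdac7 and Hdac9. The difference between Hdac5 and these genes was not tested.

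The other deacetylases differed little between Tcf1 cells and control cells. For the class I enzymes Hdac1, Hdac2 and Hdac3, which work in repressor complexes, and for Hdac6 and Sirt1 the differences ran from -0.16 to 0.06, and 0 of 5 passed. Hdac1 read 12.13 in LMPPs, 12.11 and 12.26 in Tcf1 cells and 12.13 in control cells, and its second probe set gave differences of 0.08 and 0.06 from the 2 single arrays. For Sirt1, an NAD-dependent deacetylase, and Hdac2 the single LMPP array read above the 3 T lineage arrays instead, though neither gene passed. Hdac2 differed by -0.36 between Tcf1 cells and LMPPs (adjusted p = 0.378, limma). Sirt1 read 10.13 in LMPPs, 9.63 and 9.72 in Tcf1 cells and 9.73 in control cells, and the difference of Tcf1 cells from LMPPs was -0.46 (adjusted p = 0.247, limma).

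**Figure D3:**
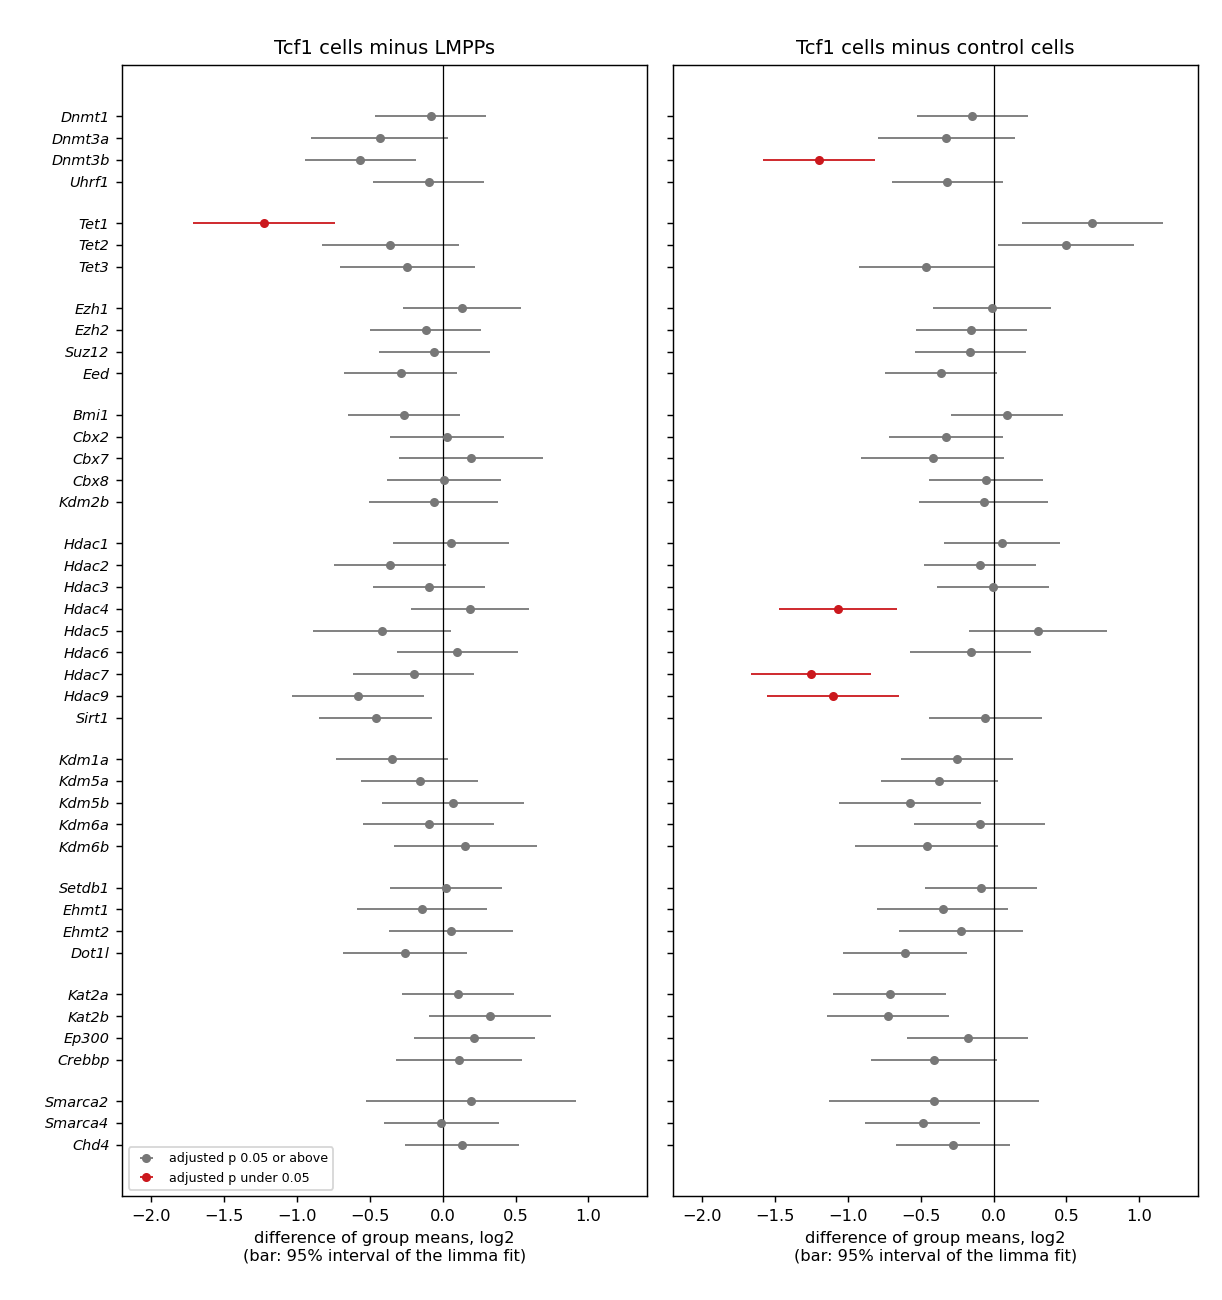
Difference of group means on the log2 scale (x axis) for each of the 41 members (y axis), Tcf1 cells minus LMPPs on the left and Tcf1 cells minus control cells on the right, with 95% intervals of the limma fit. Red marks the genes with an adjusted p under 0.05: Tet1 on the left and Dnmt3b, Hdac4, Hdac7 and Hdac9 on the right, with 11 of 41 intervals on the right clear of 0 before adjustment.

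Histone acetyltransferases had their highest signal in control cells. Kat2b (PCAF) read 7.28 in LMPPs, 7.49 and 7.72 in Tcf1 cells and 8.33 in control cells. Its paralog Kat2a (GCN5), the acetyltransferase of the SAGA coactivator complex, read 10.89, 10.95, 11.04 and 11.71 in the same order. For both genes the Tcf1 arrays lay between the single arrays and nearer to LMPPs. The differences between Tcf1 and control cells were -0.73 for Kat2b (adjusted p = 0.082, limma) and -0.71 for Kat2a (adjusted p = 0.0674, limma), and neither passed. Kat2b passed in 3 of 8 alternatives and Kat2a in 4 of 8. Kat2a and Kat2b share sequence, and how far their probes tell them apart was not tested. For Ep300 and Crebbp, the paired coactivators p300 and CBP, the differences from control cells were -0.18 and -0.41 and did not pass, and 0 of 4 acetyltransferases passed against LMPPs (limma).

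Of the 5 histone demethylases, 0 passed in either comparison (limma), and Kdm5b was lower than in control cells at an unadjusted p under 0.05. Kdm5b, which removes methyl groups that mark active promoters, read 8.79 in LMPPs, 8.67 and 9.05 in Tcf1 cells and 9.44 in control cells. Its Tcf1 replicates differed by 0.38 and lay on both sides of the LMPP array, and the difference from control cells was -0.58 (adjusted p = 0.244, limma). Kdm6b, which removes the PRC2 mark, had a like profile with 9.09, 9.05, 9.44 and 9.70. Its relative Kdm6a, with the same activity, differed by -0.10 from control cells and -0.10 from LMPPs. Kdm1a, the first histone demethylase described, differed by -0.35 from LMPPs and -0.25 from control cells, and Kdm5a by -0.16 and -0.37.

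Of the 4 measured histone methyltransferases outside Polycomb, 0 passed (limma), and Dot1l was lower than in control cells at an unadjusted p under 0.05. Dot1l, which methylates the globular part of histone H3 in transcribed genes, read 10.54 in LMPPs, 10.16 and 10.40 in Tcf1 cells and 10.89 in control cells. Both Tcf1 arrays were below the other 2, with a difference of -0.61 from control cells (SE 0.18, adjusted p = 0.146, limma). Setdb1, Ehmt1 and Ehmt2, which write repressive marks, differed by -0.35 to -0.09 from control cells and by -0.14 to 0.06 from LMPPs.

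The 3 remodelling ATPases did not pass in either comparison (limma). Smarca2 (BRM) read 10.01 in LMPPs, 9.82 and 10.59 in Tcf1 cells and 10.61 in control cells. Its Tcf1 replicates lay 0.77 apart, the widest gap of any member, with replicate 2 beside the control array and replicate 1 below the LMPP array. A mean of the pair therefore says little about Smarca2, and the 95% interval of the difference from control cells was -1.13 to 0.31. Smarca4 (BRG1), the other ATPase of the SWI/SNF complex, read 11.48, 11.40, 11.53 and 11.95, with a difference of -0.49 from control cells (adjusted p = 0.223, limma). Chd4, the ATPase of the NuRD complex, differed by -0.28 from control cells and 0.13 from LMPPs.

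Control cells were set against LMPPs without a test, 1 array against 1. At least 2-fold apart were 4 of 41 members, against 5.53% of all genes: Hdac4 (1.25), Hdac7 (1.05) and Kat2b (1.05) were higher in control cells and Tet1 (-1.90) lower. The share higher was 3 of 41, against 3.17% of all genes, and the share lower 1 of 41, against 2.36%. Of the 9969 genes above the median level, where all members lie, 887 were at least 2-fold apart, 521 higher and 366 lower. Of all members, 32 of 41 read higher in the control array than in the LMPP array (78.0%), against 47.2% of all genes. The median difference was 0.21, against -0.01 over all genes. Over genes above the median level these values were 45.5% and -0.04.

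Most members read lower in Tcf1 cells than in control cells by a small amount. Both Tcf1 arrays lay below the control array for 31 of 41 members (75.6%) and above it for 4 (Tet1, Tet2, Hdac5 and Bmi1). Over all genes both lay below in 34.2% and above in 38.6%, and over the 9969 genes above the median level in 47.2% and 30.3%. The median difference of the members was -0.28, against 0.02 over all genes and -0.07 over genes above the median level. Taking only replicate 1 gave -0.33 and only replicate 2 gave -0.18, where genes above the median level had -0.14 and 0.003. The size of this shift thus depended on the replicate, in the members as in genes above the median level. The members were brighter than that set, with a mean of 10.19 against 9.42 on the control array. No set matched in signal was used. Comparisons with control cells and with LMPPs share the Tcf1 arrays and are not independent.

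Against LMPPs the members' differences were smaller. Both Tcf1 arrays lay below the LMPP array for 20 of 41 members (48.8%) and above it for 6 (14.6%), against 36.8% and 35.8% of all genes and 53.0% and 25.7% of genes above the median level. More members thus lay below than above, and the share above was under that of either set of genes. The median difference was -0.08, turning to 0.0198 after renewed quantile normalization, while replicate 1 by itself gave -0.13 and replicate 2 gave 0.007. In 15 of 41 members (36.6%) both Tcf1 arrays were below both single arrays, as for 16.9% of all genes and 25.3% of genes above the median level. These included Dnmt1, Dnmt3a, Dnmt3b and Uhrf1, all 4 genes for placing and copying DNA methylation. In 0 of 41 were both Tcf1 arrays above both single arrays, as for 19.3% of all genes and 10.1% of genes above the median level. In 5 members (Chd4, Ep300, Hdac4, Kat2a and Kat2b) both Tcf1 arrays lay between with control cells highest, against 9.51% of all genes, and in 4 (Bmi1, Hdac5, Tet1 and Tet2) with LMPPs highest, against 11.5%. The remaining 17 members (41.5%) had Tcf1 arrays on different sides of a single array, against 42.8% of all genes.

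**Figure D4:**
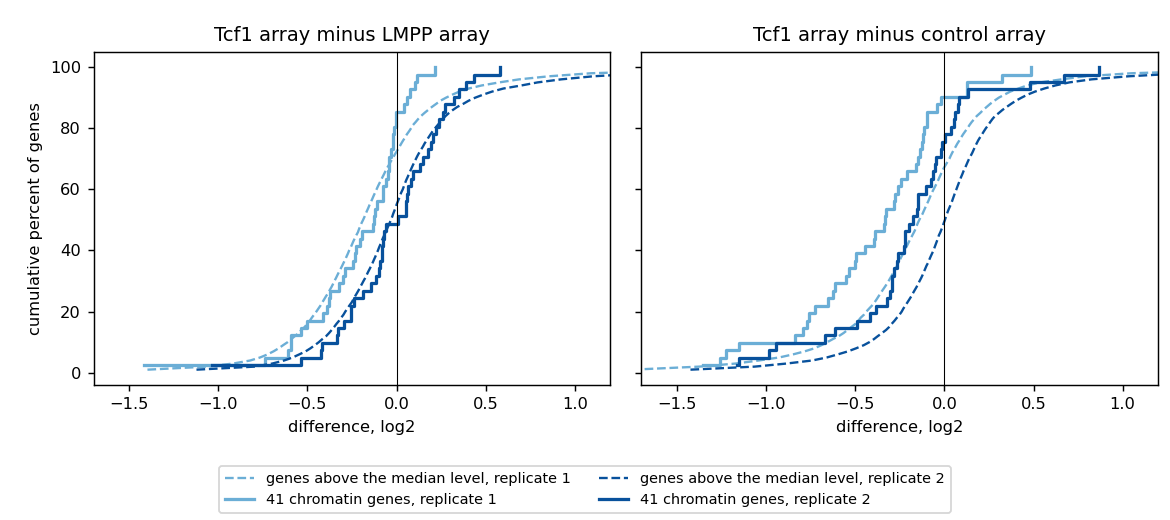
Cumulative percent of genes (y axis) by their log2 difference (x axis) between each Tcf1 array and the LMPP array (left) or the control array (right), for the 41 members (solid) and for the 9969 genes above the median level (dashed). On the right the members lie to the left of the other genes over most of the range in both replicates (medians -0.33 and -0.18 against -0.14 and 0.003), and on the left the curves cross.

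A wider set of 160 chromatin genes outside the list, 153 of them measured, gave 2 calls in each comparison (1.31%). Against LMPPs 1 rose and 1 fell, where 3.06% of all genes passed. Against control cells 0 were higher and 2 lower (limma), where 4.38% of all genes passed, so both shares lay below the background. Phc3, a Polyhomeotic subunit of PRC1, read 9.11 in LMPPs, 9.49 and 9.89 in Tcf1 cells and 11.26 in control cells. It was lower in Tcf1 cells than in control cells, with a log2 difference of -1.56 (SE 0.21, adjusted p = 0.00918, limma) and of -1.30 on its second probe set. Mtf2, which recruits PRC2 to CpG islands, read 10.78, 10.55, 10.47 and 11.34 and was lower too, with a difference of -0.83 (adjusted p = 0.0384, limma). Of the 25 measured Polycomb genes outside the list these were the ones that passed.

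Chd7, a remodeller of the CHD family, rose by 0.89 from LMPPs to Tcf1 cells (adjusted p = 0.0362, limma), with 8.30 in LMPPs, 9.19 and 9.21 in Tcf1 cells and 9.04 in control cells. The gene has 30 probe sets, and the one used gave the largest difference of them. All 30 were higher in Tcf1 cells, with a median of 0.40, and their average did not pass (0.42, adjusted p = 0.311, limma). The arginine methyltransferase Prmt7 fell by 0.88 (adjusted p = 0.0488, limma), from 9.67 to 8.71 and 8.89, with 8.68 in control cells. Both separated LMPPs from all T lineage arrays. Among the other measured genes of the wider set, 0 of 15 for DNA methylation and methyl-CpG binding, 0 of 14 for deacetylation, 0 of 14 for demethylation and 0 of 17 for acetylation passed in either comparison (limma). At an unadjusted p under 0.05 against control cells, 6 of the 153 were higher (3.92%, against 5.72% of all genes) and 25 lower (16.3%, against 8.37%). Of the 153, 145 lay above the median level. Over all genes above that level the shares were 8% higher and 13.8% lower, so the share lower lay nearer to this background. The remodelling genes had 0 higher and 9 lower of 37, the methyltransferases 2 and 4 of 31, the Polycomb genes 0 and 4 of 25 and the acetyltransferases 1 and 3 of 17. The demethylases had 0 higher and 3 lower of 14, the deacetylases 0 and 2 of 14, and the DNA methylation and methyl-CpG genes 3 and 0 of 15. The median difference of the 153 genes from control cells was -0.20, and both Tcf1 arrays lay below the control array in 108 of them (70.6%). Over all genes these values were 0.02 and 34.2%, and over genes above the median level -0.07 and 47.2%. The DNA methylation and methyl-CpG genes stood nearest to these, with a median of -0.08 and both Tcf1 arrays below in 8 of 15.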

How the data were processed

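Affymetrix arrays of 4 samples were hybridised after amplification (Ambion WT Expression kit), per the labels' protocols. Deposited values are the authors' log2 signals of 35399 probe sets made with RMA and Partek 6.5, per the submitters' processing notes. Their base was inferred from the range, and parameters are not given in the sources used here. The number of arrays limits the precision. Of the probe sets, 21789 carried 1 gene symbol, 1621 several and 11989 none, and Entrez numbers renamed 0 symbols. Group means of all 4 arrays entered 1 limma model (version 3.58.1, R 4.3.3), with Benjamini-Hochberg adjustment over 19938 genes, 1 residual degree of freedom and a prior of 5.78. Single arrays were assumed to vary like the Tcf1 pair, and control cells against LMPPs had no test. When tested on simulated data, this fit gave a share of false calls that was mostly above the nominal threshold, so adjusted p-values close to it are uncertain. Members and lists were chosen with earlier results of these data known. Members are given on every array if they passed, were at least 2-fold apart or varied most in their role group. Wider genes are named if they passed. Normalization, filters, probe set choice, features tested, moderation and replicates were varied. Promoter windows are RefSeq's (GRCm38.p6), matched by symbol. Scanner files were not used here.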

Additional observations from a re-analysis of the deposited data

Results flagged for a closer look

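In 3 members both Tcf1 arrays and the control array lay on opposite sides of the LMPP array, and the difference between Tcf1 cells and control cells passed the test (limma). How many of all genes meet this rule was not counted, so whether this number is unusual was not tested. Dnmt3b differed by -1.20 between Tcf1 cells and control cells, with -0.56 from LMPPs in Tcf1 cells and 0.63 in control cells. Hdac7 differed by -1.25, with -0.20 and 1.05. Hdac9 differed by -1.10, with -0.58 and 0.52. The differences from LMPPs share the single LMPP array, and those of Tcf1 cells did not pass on their own.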

How the results depend on the processing

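The 5 called members kept their direction under all alternatives run and their call in 6 of 8 with a test, the exceptions being the test over all probe sets and the unmoderated test. The number of called members against LMPPs was 1, but 2 after median centring and 0 in those 2 tests. Against control cells it was 4, but 7 after median centring, 8 over genes above the median level and 0 in those 2 tests. Over all genes, 610 passed against LMPPs, moving to 1456 after median centring (41.7% higher in place of 57.2%), 1196 above the 25th percentile, 1189 above the median level (47.2% higher), 936 with an intensity trend, 12 unmoderated and 0 over all probe sets (3317 at an unadjusted p under 0.05). Against control cells, 874 of 19938 moved to 1646 after median centring and 1437 above the 25th percentile. It was 1295 when only the 9969 genes above the median level were tested. The unmoderated test gave 12 and the test over all probe sets 0 (3702 at an unadjusted p under 0.05). Genes at least 2-fold apart between control cells and LMPPs numbered 1102, or 1709 over all probe sets. The members' median difference from LMPPs moved from -0.08 to 0.0198 after renewed quantile normalization, and leaving out 1 Tcf1 replicate gave -0.13 to 0.007 against LMPPs and -0.33 to -0.18 against control cells, as values without a test. No paired analysis was possible because only the Tcf1 cells had more than 1 array.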
